A study of Homo sapiens with 6 samples.

Results

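The 4 genes of the ERBB family of receptor tyrosine kinases, EGFR, ERBB2, ERBB3 and ERBB4, were described by the compartment score of the chromatin they lie in. They were chosen by name, and the bins of 100 Kb that overlap each gene body in the GENCODE annotation of hg19 were read, as were the 10 bins on either side. This gave 4 of 19710 protein-coding genes with a score, 18 gene-body bins, and 98 bins in 4 windows of 27898 bins scored in all 6 libraries. T47D, an established breast cancer cell line of immortalized epithelial cells that is estrogen receptor-positive, was profiled by tethered chromosome capture (TCC), a form of Hi-C that counts contacts between pairs of genomic regions after ligation on a solid surface. Parental cells were starved of hormone for 72 h and collected without further treatment (T0), or after 1, 4, 16 or 24 h with 100 nM 17β-estradiol (E2; T1, T4, T16 and T24). Tamoxifen-resistant T47D cells (TamR) made the sixth condition; their label gives the agent as untreated, while the methods of the study describe the resistant cells as kept in 100 nM tamoxifen and charcoal-stripped serum. TamR therefore differs from T0 in cell line, medium history and drug at once, and these cannot be told apart. Each condition has 1 library, so no difference below has a replicate check, no test was made, and the spread over the 5 parental libraries includes any effect of E2. Whether a library pooled several cultures is not given in the sources used here.

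For each bin the authors deposited the first eigenvector of the contact matrix between chromosomes. Bins with a positive score belong to compartment A, the more open and gene-rich chromatin, and those with a negative score to compartment B, the more closed chromatin. Scores are printed here multiplied by 1000; each library has a standard deviation of 5.98 on that scale, so a score ranks a bin within its own library and carries no read depth, which is unknown from these files. Of the scored bins, 44.0% (T24) to 47.5% (TamR) were positive. Across bins, which are not replicates, scores correlated with r from 0.985 to 0.996 between parental libraries and from 0.894 to 0.901 between TamR and the parental libraries, so TamR stands apart from the other 5 genome-wide. The files hold compartment scores only, so the identity of the cells could not be checked against expressed marker genes.

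ERBB receptors sit in the plasma membrane of epithelial cells and, once a ligand of the EGF or neuregulin family binds, pair with one another and phosphorylate the tails of the partner, which recruits adaptors to the RAS-MAPK and PI3K-AKT pathways. EGFR and ERBB4 bind ligand and are active kinases, ERBB2 binds no known ligand and is the favoured partner of the others, and ERBB3 binds neuregulins but has little kinase activity and signals through its partners. ERBB2 is amplified in a subset of breast cancers, and ERBB signalling has long been studied beside estrogen receptor signalling in cells that grow under tamoxifen.

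The genes differ in size and in the base composition of their surroundings. EGFR (ENSG00000146648) spans chr7:55086710-55279321 on the plus strand, 193 kb, and overlaps 3 bins. ERBB2 (ENSG00000141736, chr17:37844167-37886679, plus strand, 42.5 kb) and ERBB3 (ENSG00000065361, chr12:56470583-56497289, plus strand, 26.7 kb) overlap 1 bin each. ERBB4 (ENSG00000178568) covers 1160 kb of chr2:212240442-213403565 on the minus strand, overlaps 13 bins, and is longer than 99.7% of protein-coding genes. The GC content of the gene-body bins was 43.3% for EGFR, 54.1% for ERBB2, 48.3% for ERBB3 and 34.9% for ERBB4. Of all scored bins, 98.1% had no more GC than the ERBB2 bin, while the ERBB4 mean stood at percentile 5.57.

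The promoters of 3 of the genes are shown because the study's agents act through the estrogen receptor, whose DNA motif can be looked for there. Each is the stretch outside annotated exons within the 250 bases before the start of the canonical transcript, read from the GRCh37 genome, 5′ to 3′ on the strand of the gene, with each CG dinucleotide in capitals. EGFR is chr7:55086460-55086709 (plus strand), ERBB2 chr17:37856067-37856228 (plus strand) and ERBB4 chr2:213403566-213403776 (minus strand). The EGFR stretch is the full 250 bases, while those of ERBB2 and ERBB4 stop 88 and 39 bases short of the canonical start.
EGFR promoter: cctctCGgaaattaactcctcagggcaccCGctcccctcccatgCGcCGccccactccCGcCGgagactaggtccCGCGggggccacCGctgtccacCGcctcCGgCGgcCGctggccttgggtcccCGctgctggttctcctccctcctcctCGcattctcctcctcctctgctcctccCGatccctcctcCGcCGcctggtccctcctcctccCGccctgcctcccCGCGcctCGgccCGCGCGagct
ERBB2 promoter: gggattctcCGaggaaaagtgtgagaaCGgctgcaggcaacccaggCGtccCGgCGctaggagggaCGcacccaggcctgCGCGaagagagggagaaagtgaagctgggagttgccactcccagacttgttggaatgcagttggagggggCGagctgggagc
ERBB4 promoter: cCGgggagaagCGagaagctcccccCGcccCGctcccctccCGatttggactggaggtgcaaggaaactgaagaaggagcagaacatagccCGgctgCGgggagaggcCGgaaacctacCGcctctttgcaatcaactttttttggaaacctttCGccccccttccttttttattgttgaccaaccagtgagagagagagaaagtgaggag
Over the whole 250 bases, EGFR held 25 CG dinucleotides, ERBB4 14 and ERBB2 11, against a median of 18 over 19810 promoters of protein-coding genes. The GC content of the same windows was 73.6% for EGFR, 58.8% for ERBB2 and 57.2% for ERBB4, with a median of 63.2% over all promoters. ERBB2 thus joined the bin with the highest GC of the 4 genes to a promoter below the median. The full estrogen response element (GGTCA, 3 bases of any kind, then TGACC), searched on both strands, was in 0 of the 3 windows and in 0.0353% of all promoters. Its arm GGTCA, which lies within the full element and was also searched on both strands, was found 1 time in ERBB4 and in 0 of the other windows, against 30.7% of all promoters with at least 1. These matches describe letters in these windows only.

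The order of the levels was led by ERBB2 and ERBB3 in all 6 libraries. The mean gene-body score of ERBB2 was 16.09 in T0, 15.18 in T1, 15.52 in T4, 14.90 in T16, 16.19 in T24 and 16.38 in TamR, so that at least 99.2% of scored bins of each library lay below or level with it. ERBB3 scored 11.27, 11.53, 11.46, 11.62, 11.50 and 10.67 in the same order, between percentiles 94.6 and 95.7. Both genes were in compartment A throughout, and their values did not overlap.

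EGFR and ERBB4 lay near the border between the compartments in the parental libraries. EGFR scored -1.11 in T0, -0.78 in T1, -0.86 in T4, -0.60 in T16, -0.38 in T24 and -0.37 in TamR, in compartment B each time. ERBB4 scored 0.50, 0.08, 0.49, 0.10, -0.57 and -4.53. The parental ranges of these 2 genes overlapped between -0.57 and -0.38, so ERBB4 stood above EGFR in T0 to T16 and below it in T24 and TamR. In TamR the distance between them was wide, with EGFR at percentile 50.4 of bins and ERBB4 at percentile 28.6. The plot of gene-body scores shows ERBB2 and ERBB3 well above 0 and the TamR point of ERBB4 apart from the rest.

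**Figure D1:**
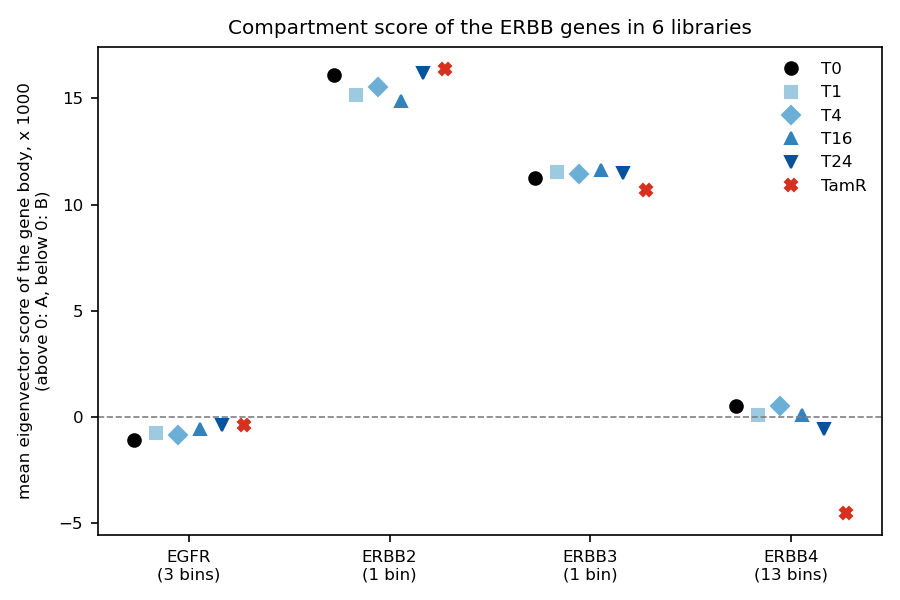
Mean eigenvector score (x 1000) of the bins that overlap each ERBB gene body, 1 point per library, with the dashed line at the border between compartments A and B. ERBB2 lies between 14.90 and 16.38 and ERBB3 between 10.67 and 11.62, EGFR lies just below 0, and ERBB4 lies near 0 in the parental libraries and at -4.53 in TamR.

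The comparison of TamR with T0 asks which receptor genes sit in another compartment in resistant cells. ERBB4 was the 1 gene of the 4 whose mean score changed sign, from A to B, against 4.45% of all protein-coding genes that went from A to B and 9.60% that changed in either direction. Its TamR score was lower than in T0 by a difference of -5.02, and 207 of 19710 genes had a lower difference. The mean over the parental libraries was 0.12 ± 0.44 (SD, n = 5), and TamR lay 3.95 below the lowest of them, where the parental libraries themselves spanned 1.07. In ranks among bins, ERBB4 moved by -27.7 percentile points.

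The other 3 receptors moved by less than most genes in absolute size. The TamR minus T0 difference was 0.75 for EGFR, 0.29 for ERBB2 and -0.60 for ERBB3, and 29.7%, 11.1% and 24.0% of genes, in that order, had an absolute difference no larger. Over all genes the median absolute difference was 1.31 and the median signed difference -0.38. The TamR score lay outside the parental range for 4 of 4 receptors, above it for EGFR and ERBB2 (30.4% of all genes) and below it for ERBB3 and ERBB4 (46.7%), but 77.1% of all genes lay outside on one side or the other. The gap to the nearest parental library was 0.01 for EGFR, 0.20 for ERBB2 and 0.60 for ERBB3. By percentile among the bins of each library, EGFR in TamR (50.4) lay within its parental range of 47.8 to 54.0. ERBB3 in TamR (94.8) likewise lay within its parental range of 94.6 to 95.7. The histogram of the TamR minus T0 difference places 3 of the receptors in its central part and ERBB4 in its lower tail.

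**Figure D2:**
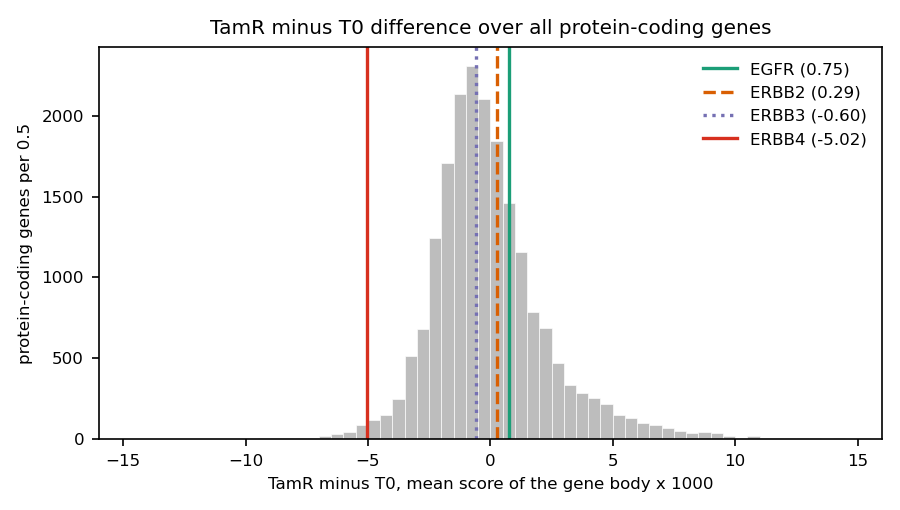
Number of protein-coding genes by their TamR minus T0 difference in mean gene-body score (x 1000, steps of 0.5), with vertical lines at the 4 ERBB genes. EGFR (0.75), ERBB2 (0.29) and ERBB3 (-0.60) lie in the body of the distribution and ERBB4 (-5.02) in its lower tail.

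The position of ERBB4 near the border and its length were set beside those of other genes. Of 1696 genes whose T0 score was within 1 of the border, 390 went from A to B and 331 from B to A in TamR, and 40 (2.36%) had a lower difference than ERBB4. Of 71 genes at least 1 Mb long, 5 were in A in T0, and 1 of them, ERBB4, was in B in TamR, while 6 of the 71 went from B to A. The ERBB4 body is also low in GC content, and over 4803 single bins with the GC content of the ERBB4 body (33.1 to 36.3%), the median TamR minus T0 difference was -0.68, with quartiles of -2.25 and 0.74. The part of base composition in the ERBB4 difference was not tested.

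Within ERBB4 all 13 bins of the body were lower in TamR than in any parental library, by 1.13 to 6.14, against 43.6% of all scored bins that lay below the parental range, while the parental libraries spanned 0.94 to 1.88 per bin. Of the 13 bins, 11 were in A in T0 and 0 in TamR. The bin of the gene start scored 0.27 in T0, -0.21 in T1, 0.07 in T4, -0.12 in T16, -0.94 in T24 and -3.73 in TamR. The bin of lowest difference was the fifth from the start, at 1.52 in T0, 0.10 in T1, 0.82 in T4, 0.69 in T16, 0.26 in T24 and -6.04 in TamR. The last bin, at the 3′ end, differed least, from -0.63 in T0 to -2.11 in TamR.

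By bin, TamR minus T0 was largest in size in bins 5 (-7.56) and 6 (-7.23) from the start. The start bin (-4.00) differed less than bin 9 (-5.05). The mean of the 8 bins from the start was 0.89 in T0, 0.29 in T1, 0.96 in T4, 0.46 in T16, -0.22 in T24 and -5.30 in TamR. The mean of the 5 bins at the 3′ end was -0.13, -0.27, -0.26, -0.47, -1.14 and -3.29 in the same order. Upstream of the start bin the difference was smaller, since the next bin scored 0.07 in T0 and -1.10 in TamR, against -3.73 in the start bin. The start bin (chr2:213400001-213500000) lies mostly upstream of the gene, which starts at 213403565. Bin 2 from the start scored -5.67 in TamR, so the TamR profile fell over more than 1 bin edge near the 5′ end. The 10 upstream bins had a mean of -0.29 in T0 and -1.52 in TamR, and the 10 downstream bins, all in B in every library, of -2.49 and -5.64.

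The compartment that holds the gene also differed in extent. In T0 the start of ERBB4 lay in an A compartment of 12 bins (chr2:212400001-213600000, 1.20 Mb), and in T4 in one of 15 bins (1.50 Mb). In T1, T16 and T24 the start lay in short B compartments of 0.100, 0.300 and 0.600 Mb. In TamR it lay in a B compartment of 64 bins (chr2:209200001-215600000, 6.40 Mb). Of these 64 bins, 22 were in A in T0, 19 in T1, 22 in T4, 19 in T16 and 13 in T24. The 12 bins of the T0 compartment formed an unbroken run that went from A to B, with a mean of 0.69 in T0 and -4.57 in TamR, and of 612 such runs in the genome 15 were longer and 4, this one included, had 12 bins.

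EGFR showed a different picture in each flank. Its TamR score was lower than in all parental libraries in 9 of 10 upstream bins, against 43.6% of all scored bins. The mean of these 10 neighbouring bins, which are not independent, was -3.53 in T0 and -6.31 in TamR. The 10 downstream bins had a mean of -0.89 in T0, -0.45 in T1, -0.29 in T4, -0.10 in T16, 0.35 in T24 and 0.84 in TamR. Of these downstream bins, 5 went from B to A between T0 and TamR, against 7.67% of all bins. Of the gene body, only the bin of the start was in A in TamR, at 0.37 after -1.87 in T0, -0.80 in T1, -0.77 in T4, -0.79 in T16 and -0.75 in T24. The other 2 body bins stayed in B in all 6 libraries. In the parental libraries EGFR lay at the edge of a B compartment of 7.40 to 7.60 Mb that began at chr7:47900001.

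ERBB3 lay in the same A compartment of 2.40 Mb (chr12:56000001-58400000) in all 5 parental libraries. In TamR that compartment reached from 45500001 to 58400000, 12.9 Mb, of which 116 of 129 bins were already in A in T0. The other 13 bins were in B in T0, and 9 of them formed the run next to the T0 compartment (chr12:55100001-56000000), with a mean of -3.68 in T0, -2.65 in T1, -3.33 in T4, -3.21 in T16, -1.49 in T24 and 1.45 in TamR, of which 6 bins are within the ERBB3 window. The remaining 4 lie farther upstream. The 10 downstream bins of ERBB3 stayed in A, and their mean was 11.07 in T0 and 10.62 in TamR.

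ERBB2 lay in an A compartment of 88 bins (chr17:34800001-43600000, 8.80 Mb) with the same ends in all 6 libraries. The 21 bins of its window scored between 8.56 and 16.70, and 0 of 21 changed compartment in any comparison. For 0 of 21 bins the 95% Wilson interval reaches 15.5%, but these neighbouring bins are not independent and all score far above 0. The interval therefore cannot set this window against the genome's share of changed bins.

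Over the 4 windows, 28 of 98 bins (28.6%; 95% Wilson interval 20.6 to 38.2%) were in another compartment in TamR than in T0, against 13.9% of all scored bins. In the windows of EGFR, ERBB2 and ERBB3 alone, 12 of 65 bins differed (18.5%; 95% Wilson interval 10.9 to 29.6%). Neighbouring bins share contacts and are not independent, so these intervals are too narrow. The 16 bins that went from A to B, against 6.27% of all bins, were all in the ERBB4 window. The 12 that went from B to A, against 7.67%, divided into 6 in the EGFR and 6 in the ERBB3 window. When bins with a weak score in any library were left out, 59 bins remained and 4 of them (6.78%) had changed, 3 in the ERBB3 and 1 in the EGFR window, against 5.82% of the 21619 bins that the filter left genome-wide. All 13 bins of the ERBB4 body were removed by that filter because their parental scores lie close to 0. The plot of scores along the windows shows the red TamR profile below the others along the whole ERBB4 body.

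**Figure D3:**
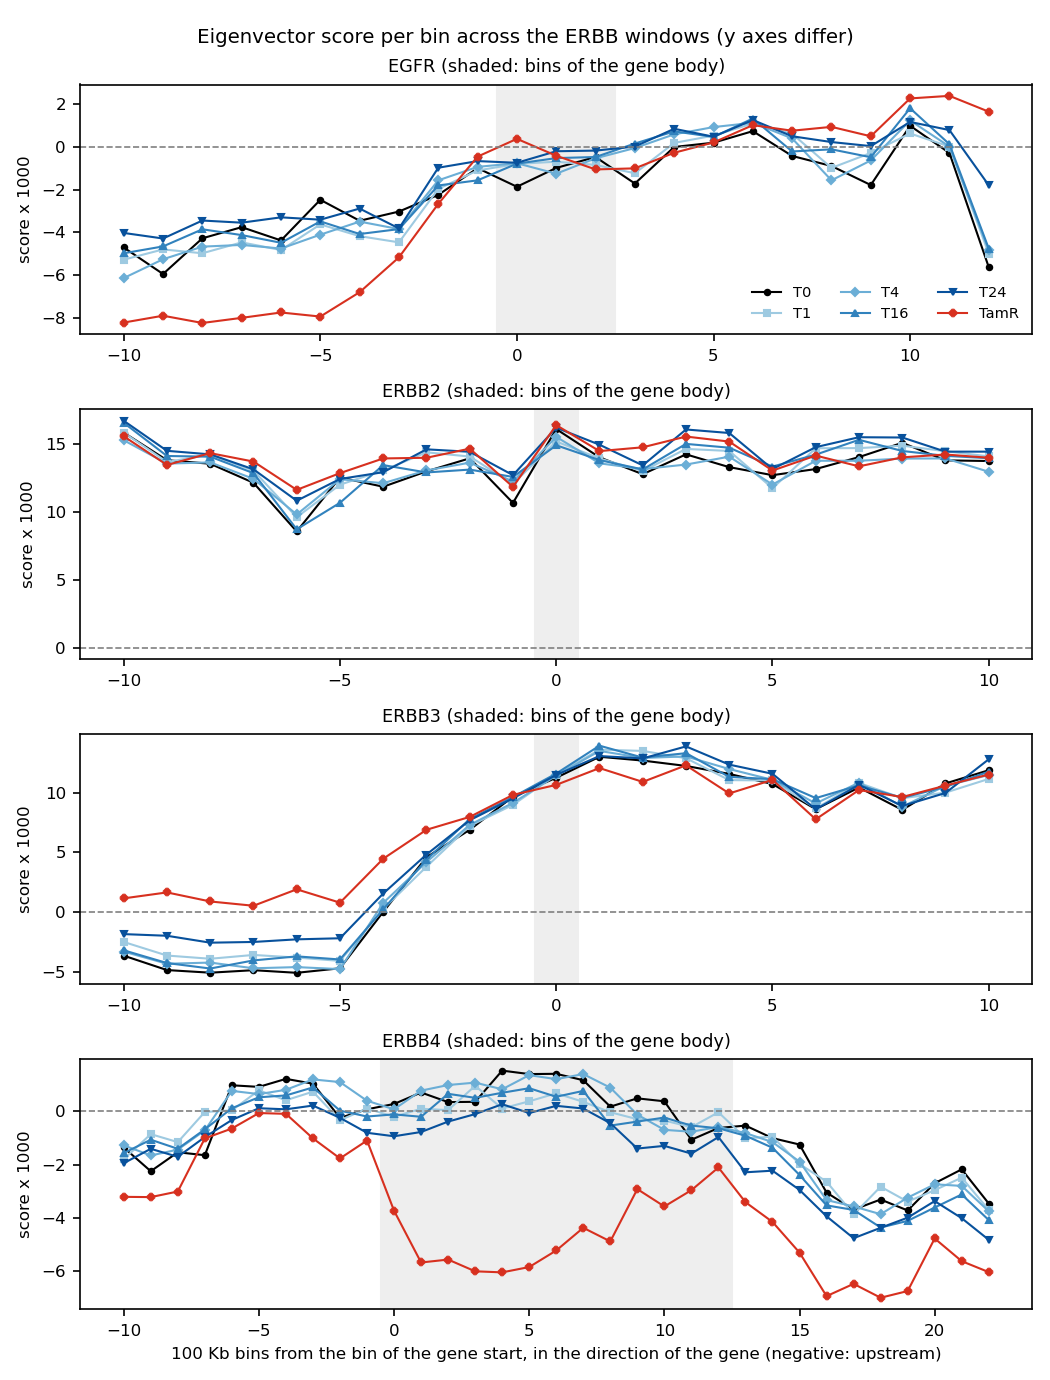
Eigenvector score (x 1000) per 100 Kb bin in the 4 ERBB windows, in the direction of each gene, with 1 line per library, shaded gene bodies and the dashed line at 0. TamR lies below the parental lines in all 13 ERBB4 body bins, crosses above 0 in the 6 B bins upstream of ERBB3, and all lines of ERBB2 lie above 8.

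The E2 time points ask whether the receptor genes moved within a day of hormone. In 17 of 98 bins (17.3%; 95% Wilson interval 11.1 to 26.0%) the compartment differed from T0 in at least 1 E2 library, against 7.11% of all bins, and in 4 bins in all 4 E2 libraries, against 1.41%. Neighbouring bins are not independent, so the interval is too narrow here as well. The 17 bins were 11 in the ERBB4 window, 8 of them in the gene body, and 6 in the downstream flank of EGFR. The ERBB2 and ERBB3 windows had 0 such bins of 21 each. Without T24, 11 of the 98 bins differed (11.2%), against 5.10% of all bins. With weak bins left out, 0 of 59 bins differed from T0 in any E2 library. All 17 bins thus scored near 0 in at least 1 library. The share over all bins under that filter is not given here.

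T24 was the E2 library farthest from T0 in the windows. The bins that differed from T0 numbered 7 in T1, 6 in T4, 10 in T16 and 16 in T24, while genome-wide the shares were 3.16%, 3.05%, 3.80% and 5.17%. In the ERBB4 window, 16 of 33 bins were in A in T0, 12 in T1, 15 in T4, 11 in T16, 6 in T24 and 0 in TamR. T24 was below the other parental libraries in 26 of the 33 bins, where 31.8% of all bins had that order. In the windows of the other receptors it was mostly above them, in 16 of 23 bins for EGFR, 17 of 21 for ERBB2 and 12 of 21 for ERBB3, against 29.4% of all bins.

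The mean score of ERBB4 was below 0 in T24 alone among the E2 libraries, where 2.90% of all genes had gone from A to B. The gene-body difference of T24 from T0 was -1.07 for ERBB4, 0.74 for EGFR, 0.22 for ERBB3 and 0.09 for ERBB2, and the median absolute difference over all genes was 0.75. T24 minus T0 correlated with GC content across bins (r = 0.20, n = 27898 bins of the same libraries), and TamR minus T0 did so with r = 0.02. T24 also had the lowest share of positive bins, and with the median of each library as the border ERBB4 stayed in A in T24 and was in B in TamR alone. In bins with the GC content of the ERBB4 body the median T24 minus T0 difference was 0.06, with quartiles of -0.57 and 0.57. The part of base composition in the T24 values was not tested. EGFR and ERBB3 scored lower in T0 than in all 4 E2 libraries, an order that 27.3% of genes had, and ERBB4 scored higher in T0 than in all 4, by 0.01 over T4, as did 25.4% of genes.

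The neighbours of the receptors followed the windows. Over all protein-coding genes, 12.2% started in a bin whose compartment varied among the 6 libraries. Of 5 genes that start in the ERBB4 window, the compartment varied for ERBB4 itself and for IKZF2, a zinc finger transcription factor of lymphoid cells, which scored 0.97 in T0, 0.03 in T1, 0.76 in T4, 0.11 in T16, -0.33 in T24 and -0.65 in TamR. LANCL1, CPS1 and SPAG16, the other 3, were in B in all 6 libraries. The ERBB2 window held 55 gene starts, 0 of them in a bin that varied. GRB7, an adaptor that binds ERBB2, and PGAP3 and MIEN1, genes often co-amplified with ERBB2, start in the same bin as ERBB2 and so have its score, and STARD3, a cholesterol transporter next to it, scored 10.66 in T0 and 11.84 in TamR.

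In the ERBB3 window 15 of 78 gene starts lay in bins that varied, against the same 12.2%. The first 5 in genome order were NEUROD4, a neuronal transcription factor, and the olfactory receptor genes OR9K2, OR10A7, OR6C74 and OR6C6. NEUROD4 scored -3.67 in T0, -2.52 in T1, -3.33 in T4, -3.22 in T16, -1.86 in T24 and 1.14 in TamR, and OR9K2 scored -4.88, -3.66, -4.35, -4.29, -2.00 and 1.64. The bin shared by OR10A7, OR6C74 and OR6C6 was likewise in A in TamR alone, at 0.88 after -5.10 in T0.

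In the EGFR window 11 of 16 gene starts lay in bins that varied, EGFR first among them, and gene starts that share a bin are not independent. LANCL2 was in A in the 4 E2 libraries and in B in T0 and TamR, with scores of -0.01 in T0, 0.18 in T1, 0.58 in T4, 0.72 in T16, 0.84 in T24 and -0.28 in TamR. SEPTIN14, ZNF713 and ENSG00000249773 share a bin that scored -1.79 in T0, 0.03 in T24 and 0.49 in TamR. These values lie within 2 of the border, where small shifts change the sign.

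The 52 other genes of ERBB signalling, listed by role, had scores in all libraries. Of these, 8 (15.4%) started in a bin in another compartment in TamR than in T0, against 9.72% of all genes: 4 from B to A (5.20% of all genes) and 4 from A to B (4.53%). The median TamR minus T0 difference over the list was -0.73 and over all genes -0.38. With the median of each library as the border 5 of the 8 changes held, and AREG, EGF and SOS1 no longer counted as changed. Of the list, 38 genes were in A and 5 in B in all 6 libraries.

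The ligands held 5 of the 8 changes. AREG, an EGFR ligand that estrogen induces in breast epithelium, scored -0.36 in T0, 0.32 in T1, 0.52 in T4, 0.17 in T16, -0.49 in T24 and 5.49 in TamR. EREG, which binds EGFR and ERBB4, scored -1.05, -0.64, -0.37, -0.09, -0.84 and 3.77. These genes were in A in TamR well above every parental library, and EPGN and BTC, further ligands of EGFR, were too. EPGN scored -2.78 in T0, -2.36 in T1, -1.91 in T4, -3.01 in T16, -3.36 in T24 and 5.11 in TamR, and BTC scored -3.37, -3.64, -3.16, -3.92, -4.01 and 3.62. All 4 lie between 75174187 and 75719733 on chromosome 4 and are not independent, since they share 1 A compartment of TamR (chr4:72000001-79300000, 7.30 Mb) in which 21 of 73 bins were in A in T0. The mean of those 73 bins was -1.91 in T0 and 3.45 in TamR.

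The fifth ligand, EGF itself, went from A to B, with 0.61 in T0, 1.49 in T1, 0.94 in T4, 0.96 in T16, -0.27 in T24 and -0.38 in TamR. The neuregulins, the ligands of ERBB3 and ERBB4, kept their compartments: NRG1 (-8.09 in T0 and -8.81 in TamR) and NRG3 (-5.07 and -8.92) were in B, and NRG2 (9.15 and 7.51) and NRG4 (8.66 and 4.49) in A. TGFA (5.93 and 6.91) and HBEGF (7.12 and 5.54) were in A as well. The ligand genes of EGFR and ERBB4 thus included both directions, while ERBB4 itself went to B.

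Downstream of the receptors, 3 genes went from A to B. PIK3R1, the regulatory subunit p85α of PI3K, scored 3.95 in T0, 3.03 in T1, 2.78 in T4, 2.99 in T16, 2.94 in T24 and -3.66 in TamR. SOS1, the exchange factor that activates RAS, scored 3.21, 2.74, 2.34, 2.53, 1.93 and -0.33. CBLB, a ubiquitin ligase that marks activated receptors for degradation, scored 0.26, -0.75, -0.30, -0.16, -1.53 and -1.84, so that it was in B from T1 onward. With the mean over the gene body, as used for the receptors, 6 of the 52 genes changed, and SOS1 (3.43 in T0 and 0.39 in TamR) and CBLB (-0.43 and -2.43) did not.

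By role, 8 of the 9 RAS-MAPK genes and 7 of the 10 PI3K-AKT genes were in A in all 6 libraries, against 71.6% of all genes. PIK3CA, the catalytic subunit that is often mutated in breast cancer, was in B in T24 alone, at -0.47 after 1.51 in T0. The STAT and SRC genes, the sheddases ADAM10 and ADAM17 that release ligands, and ERBIN and HSP90AA1, which bind ERBB2, were in A in all 6 libraries. RNF41, which targets ERBB3 for degradation and starts in the window of ERBB3, scored 12.71 in T0 and 10.92 in TamR. In the plot of T0 against TamR, the named genes are the 8 in the quadrants where the sign differs.

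**Figure D4:**
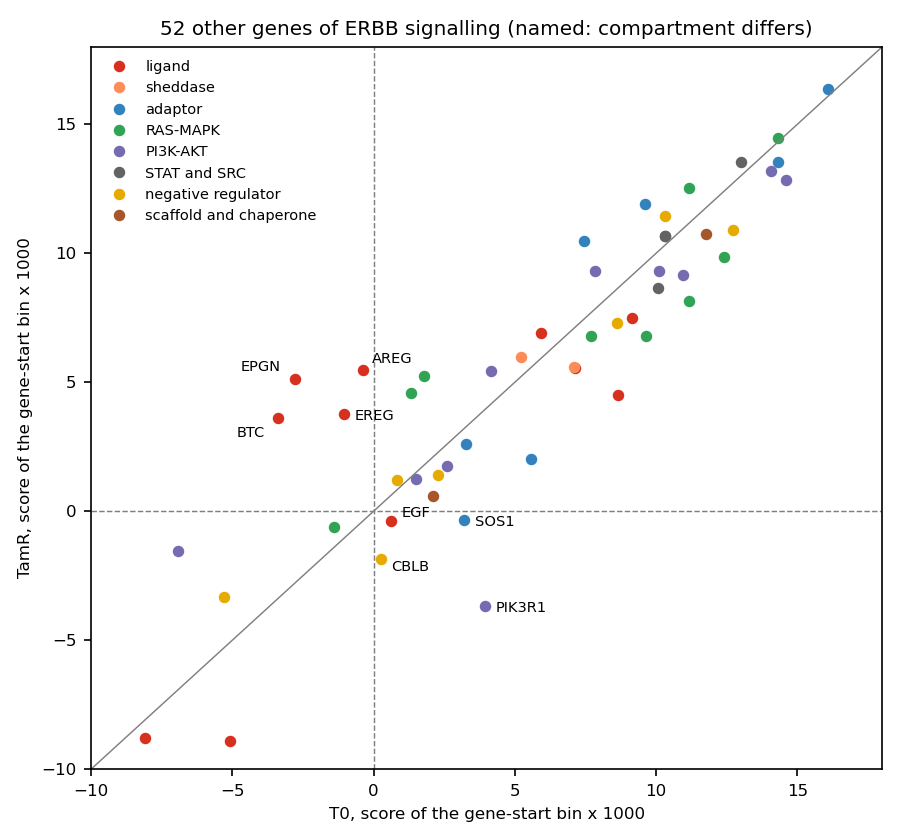
Score (x 1000) of the gene-start bin in T0 (horizontal) and in TamR (vertical) for 52 other genes of ERBB signalling, 1 point per gene coloured by role, with a diagonal of equal scores and dashed lines at 0. The 4 ligand genes AREG, EREG, EPGN and BTC lie in the upper left quadrant (B to A) and EGF, SOS1, PIK3R1 and CBLB in the lower right (A to B).

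Genes on other chromosomes with the scores most similar to those of EGFR, ERBB3 and ERBB4 were found by the root mean square difference over the 6 libraries. For ERBB4 they were CFTR (0.165), DHX36 (0.214) and FAM174A (0.248), where the median over all genes was 6.86. CFTR scored 0.26 in T0, -0.11 in T1, 0.40 in T4, -0.11 in T16, -0.70 in T24 and -4.46 in TamR. For EGFR the nearest were ACMSD (0.224), FHIT (0.238) and MRPL15 (0.296), and for ERBB3 NPR2 (0.144), CYP2S1 (0.153) and BNIP5 (0.171), against medians of 6.51 and 6.20.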

How the data were processed

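TCC libraries of parental T47D cells (T0, T1, T4, T16, T24) and of TamR cells, 1 per condition, were used. Per the study's methods, the authors aligned reads iteratively to hg19 with bowtie2, corrected the contact matrix iteratively and computed eigenvectors with HiCLib; the score they deposited is the first eigenvector per 100 Kb bin, scaled within each library, with 0 where a bin has no score. Contact counts were not used, so depth and counting error are unknown. Bin numbers matched the GRCh37 chromosome lengths, and genes came from GENCODE 44 mapped to GRCh37.

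Gene scores are unweighted means over the overlapping bins, compartments are signs, and percentiles are among scored bins. Pathway genes and neighbours were read at the bin of their start. Shares have 95% Wilson intervals. Named genes were the 4 ERBB genes, listed pathway genes that changed compartment from T0 to TamR, up to 5 neighbours per window in genome order whose bin varied, the ERBB2 neighbours GRB7, PGAP3, MIEN1 and STARD3, and the 3 genes on another chromosome nearest to each receptor (some of these items are not reported here); the remaining pathway genes and neighbours were named after their values were seen. The members and lists were chosen with earlier results of these data known. Python 3.11.15, numpy 2.4.6, pandas 2.3.3, scipy 1.17.1 and matplotlib 3.10.9 were used, and the track functions were tested on simulated data.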

Additional observations from a re-analysis of the deposited data

How the results depend on the processing

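Of 68 values under alternative settings, 47 stayed within their limit of change, 18 moved beyond it and 3 changed sign. For a receptor's value the limit was 1 SD over the 5 parental libraries, which are not replicates. It was 1.5 times for counts and the 95% Wilson interval for shares. Some of the 47 could not move by construction, so the tally does not measure robustness. All libraries have an SD of 5.98, so dividing by it changes little, and orientation by GC content turned 0 chromosomes. ERBB2 and ERBB3 overlap 1 bin each, so the start bin and the overlap weighting return the main value. The difference of ERBB4 was negative under every setting tried, from -3.31 with the flanks averaged in to -5.23 weighted by overlap; at the bin of its start it was -4.00. That of EGFR was 0.21 weighted by overlap, 2.24 at the start bin, 0.38 against the parental mean and -0.36 with the flanks; that of ERBB3 was -0.47 with a running mean of 3 bins, -0.80 against the parental mean and 1.82 with the flanks. By percentile within the chromosome, EGFR differed by -3.47 and ERBB3 by -1.46 points. The number of receptors that changed sign was 2 (EGFR and ERBB4) at the start bin or with each library's median as the border. It was 0 with the flanks. With the median border EGFR was in A in T16 and T24 too, so its change under that setting was not confined to TamR. The number outside the parental range was 2 with a running mean, 3 weighted by overlap and 3 with the flanks. Leaving out a parental library can only narrow that range, so the count of 4 could not change under that setting.

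The share of window bins changed in TamR was 6.78% without weak bins (the lowest 10% by absolute score in any library). Of all bins left by that filter, 5.82% changed. In the gene bodies alone the share was 66.7%, against 13.9% of all scored bins. ERBB4 supplied 13 of the 18 body bins and 11 of the 12 that changed. For E2 the share was 0% without weak bins. In the gene bodies it was 44.4% (8 bins, all in ERBB4), against 7.11% of all scored bins without the filter. With each E2 library left out the share of window bins was 11.2 to 17.3%, lowest without T24, where 5.10% of all bins differed. Changed pathway genes numbered 5 with the median border, 2 from A to B and 3 from B to A (AREG, EGF and SOS1 no longer counted). They numbered 3 of 41 without weak bins (EPGN, BTC and PIK3R1). The shares over all genes under these settings are not given here. For all of these the cause was not tested beyond what each setting changes by construction. Orientation by GC content turned 0 chromosomes. No paired analysis was possible because no condition has more than 1 library. The scores carry no depth, so the error of a single value near 0, where EGFR and ERBB4 lie in the parental libraries, is unknown.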

Other observations

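Some paralogues lie near more than 1 receptor, an arrangement noticed after the values were seen. IKZF2 starts in the ERBB4 window, IKZF3 in the ERBB2 window and IKZF4 in the bin of ERBB3. IKZF3 scored 12.77 in T0 and 14.75 in TamR, IKZF4 11.27 and 10.67, and IKZF2 0.97 and -0.65. IKZF4 shares the bin of ERBB3 and IKZF3 the A compartment of ERBB2, so their match with the receptor follows from position. IKZF2 was in A in T0 and in B in TamR, as was ERBB4. LANCL1 and LANCL2 start in the ERBB4 and EGFR windows, and both were in B in T0 and TamR. LANCL1 scored -2.18 and -5.62 in these 2 libraries, and LANCL2 -0.01 and -0.28, close to the border. In the 4 E2 libraries they differed, with LANCL2 in A at 0.18 to 0.84 and LANCL1 in B.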
